A study of Mus musculus with 10 samples.

Results

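The lipid droplet coat and lipolysis genes described here are 10 genes picked by symbol: the perilipins Plin2, Plin3, Plin4 and Plin5, the CIDE genes Cidea, Cideb and Cidec, the lipase gene Pnpla2, its coactivator gene Abhd5 and its inhibitor gene G0s2. All 10 were among the 55401 genes of the table. A lipid droplet is a core of triglyceride and sterol ester under a single phospholipid layer, and perilipins sit on that layer and govern access of lipases to the core. CIDE proteins gather at contacts between droplets and move lipid from the smaller to the larger one. Triglyceride breakdown starts with adipose triglyceride lipase (ATGL, encoded by Pnpla2), which ABHD5 (CGI-58) activates and G0S2 inhibits, and in liver the balance between storage and breakdown sets how much fat a hepatocyte holds.

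Liver RNA, captured with oligo(dT) beads, was sequenced from 5 mice labelled NIKhKO and 5 labelled NIKflox. Ethanol, at 5% of a Lieber-DeCarli liquid diet, was given to both genotypes over 4 weeks, so every value comes from an ethanol-fed liver and none from a liver without ethanol. Map3k14 encodes NIK, the NF-kB inducing kinase. The meaning of hKO is not written out, though the title of the series names hepatic NIK, and neither the removed part of Map3k14 nor what drives its removal is given in the sources used here. The age and sex of the mice are not given there either, and no label says that livers of a genotype came from separate litters, so p-values measure the spread between these samples only. The comparison asks which droplet genes differ in level between the 2 genotypes under ethanol.

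Total estimated counts ran from 53225028 to 64321202 in NIKhKO and from 47161869 to 65052525 in NIKflox libraries. Map3k14 averaged 0.383 ± 0.0372 FPKM in NIKhKO and 0.606 ± 0.168 FPKM in NIKflox livers (SD, n = 5 each; FPKM is a fragment count normalised for gene length and sequencing depth), with ranges that did not overlap, but its log2 fold change of -0.59 (SE 0.19) did not pass edgeR's quasi-likelihood test (Benjamini-Hochberg adjusted p = 0.33). The 10 hepatocyte markers, Alb and Apoa1 among them, summed to 42802 to 50279 FPKM in NIKhKO and 38845 to 52948 FPKM in NIKflox livers. NIKflox 2 and NIKflox 4 stood apart in heart muscle transcripts. The 12 heart muscle markers summed to 0.117 to 1.28 FPKM in NIKhKO libraries, and in NIKflox to 11.6 FPKM in replicate 2, 41.6 FPKM in replicate 4 and 0.299 to 0.676 FPKM in the other 3.

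None of the droplet genes passed the test between genotypes. Of the 10, 9 had a mean of at least 0.5 FPKM and were tested, and 0 of these 9 had an edgeR quasi-likelihood adjusted p below 0.05, where 3 of 12731 genes (0.0236%) had one. DESeq2 called 0 of the 9 as well, where it called 207 of 12731 genes. Limma on log2(FPKM + 1) called 0 of all 12731 genes, so its 0 of 9 says nothing about the droplet genes. At an unadjusted p below 0.05 edgeR listed 2 of 9, Plin5 and G0s2, where it listed 1273 of 12731 genes in either direction. Both were lower in NIKhKO, and 5.14% of all tested genes passed that threshold and were lower. The ranges of NIKhKO and NIKflox overlapped for all 9, and did not overlap for 2.20% of tested genes. Log2 fold changes, given throughout as NIKhKO over NIKflox, were negative for 8 of 9, with a median of -0.057, beside 51.8% negative and a median of -0.0098 over all tested genes. Some lists of markers of other liver cells leaned to 1 side, though edgeR called none of their genes. The 10 stellate cell markers, of the lipid-storing cells beside hepatocytes, all had negative log2 fold changes (sums of 100.1 to 138 FPKM in NIKhKO and 119.7 to 182 FPKM in NIKflox). The 5 tested B cell markers were all positive, each with an unadjusted p below 0.05 in edgeR, as had 1273 of 12731 genes in either direction. DESeq2 called 2 of them, Cd79a (adjusted p = 0.0332) and Ighd (adjusted p = 0.00988), where it called 207 of 12731 genes. The 6 B cell markers summed to 5.31 to 14.4 FPKM in NIKhKO and 3.599 to 6.58 FPKM in NIKflox. Of 11 Kupffer cell and macrophage markers 10 were positive, with 0 at an unadjusted p below 0.05 and 0 called by DESeq2 or limma. The 9 sinusoidal endothelial markers were mixed, 2 positive and 7 negative, as were the 3 tested neutrophil markers, 1 positive and 2 negative. Both of these lists had 0 markers at an unadjusted p below 0.05 in edgeR. Of the 12 heart muscle markers 4 were tested, all negative, and DESeq2 called 3 of them (Actc1, Myh6 and Myl2) lower in NIKhKO. These 4 reached a mean of 0.5 FPKM only through NIKflox 2 and 4, so the calls rest on those 2 libraries. The part of such transcripts in the droplet gene values was not tested. Because whole liver was sequenced, fewer cells of a type and less RNA per cell cannot be told apart in any of these values.

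The promoters of 3 droplet genes are printed first: those of Plin5 and G0s2, which had the smallest unadjusted p, and that of Plin2, the perilipin gene with the highest level. RefSeq held a promoter for 9 of the 10 genes (GRCm38.p6). Each line gives the bases directly before the gene's annotated start, on the gene's own strand, which is the minus strand for all 3. Capitals mark matches to the nuclear receptor half-site AGGTCA, which PPAR-type receptors bind as part of a repeat, and to the kappaB consensus of NF-kB, each searched on both strands. The G0s2 window is chr1:193273218-193273438 and holds no match, the Plin5 window is chr17:56117597-56117798, and the Plin2 window is chr4:86670061-86670309, where both matches are on the opposite strand.
G0s2: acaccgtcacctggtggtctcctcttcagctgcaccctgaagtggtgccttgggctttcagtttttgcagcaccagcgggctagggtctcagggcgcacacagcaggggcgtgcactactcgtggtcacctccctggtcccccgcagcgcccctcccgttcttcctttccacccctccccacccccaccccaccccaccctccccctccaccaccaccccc
Plin5: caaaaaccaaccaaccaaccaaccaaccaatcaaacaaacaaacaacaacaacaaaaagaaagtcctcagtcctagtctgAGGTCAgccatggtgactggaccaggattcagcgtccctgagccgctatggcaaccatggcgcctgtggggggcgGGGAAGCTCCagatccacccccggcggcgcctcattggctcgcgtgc
Plin2: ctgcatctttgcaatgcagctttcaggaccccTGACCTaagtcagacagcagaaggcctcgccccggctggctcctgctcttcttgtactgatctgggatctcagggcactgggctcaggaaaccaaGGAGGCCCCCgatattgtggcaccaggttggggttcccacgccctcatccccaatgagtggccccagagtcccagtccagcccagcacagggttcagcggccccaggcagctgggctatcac
In the Plin5 window the AGGTCA match starts 122 bases and the kappaB match 47 bases before the gene start, and in the Plin2 window the AGGTCA match (read here as TGACCT) starts 217 bases and the kappaB match 122 bases before it. No match overlapped another. AGGTCA was found in the 250 bases before a RefSeq start of 3 of the 9 genes (Plin2, Plin5, Abhd5) and of 14% of 32851 promoters. A kappaB match was found in 4 of the 9 (Plin2, Plin4, Plin5, Pnpla2) and in 7.25% of promoters. A gene was counted if any of its RefSeq promoters held a match, while the shares are of single promoters. The gene counts and the shares are therefore not like for like, and no excess can be read from them. A match describes the letters and no binding was measured.

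The droplet genes ranged widely in level on the FPKM scale, which is per length, so that genes can be set beside each other. Over the 10 livers G0s2 averaged 202 FPKM and Cideb 152 FPKM, and their order was not fixed, since G0s2 was above Cideb in 5 of 10 livers. Plin2 followed at 78.3 FPKM, below Cideb and above the next gene in all 10. Plin5 at 18.3 FPKM and Pnpla2 at 18.1 FPKM were level, with Plin5 above Pnpla2 in 4 of 10. Then came Plin3 at 9.12 FPKM and Abhd5 at 3.55 FPKM, each above the next gene in all 10 livers. Plin4 at 1.24 FPKM was above Cidec at 0.942 FPKM in 7 of 10, and Cidea had counts in 3 of 10 livers.

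**Figure D1:**
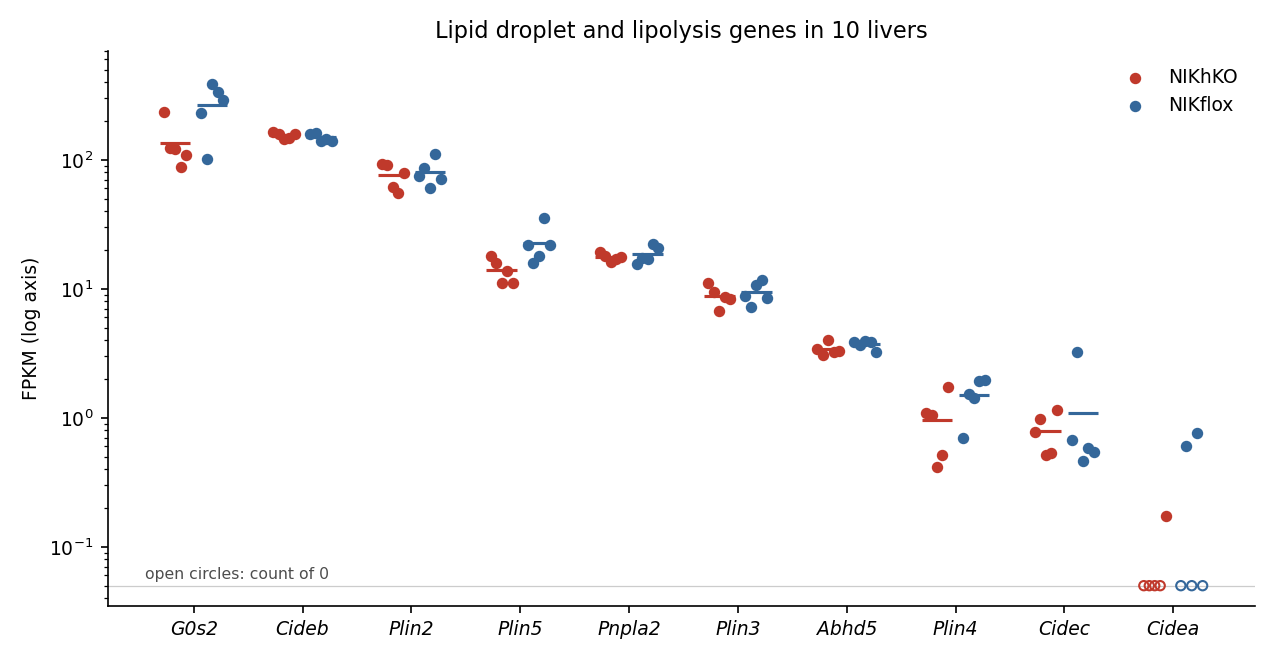
FPKM (log axis) of the 10 droplet genes in each liver, NIKhKO in red left of NIKflox in blue; points are libraries in replicate order, bars are group means and open circles are counts of 0. The genotypes overlap for every gene, and among the 9 tested genes the scatter is widest in G0s2, Plin4 and Cidec and tightest in Cideb, Abhd5 and Pnpla2.

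The genes also differed in how much they varied from liver to liver. The coefficient of variation over the 10 livers was 6.07% for Cideb, 9.69% for Abhd5 and 11.8% for Pnpla2, so the lipase and its coactivator were among the steadiest. It was 18.1% for Plin3 and 22.2% for Plin2. Of the 9 tested genes those with the most spread were Plin5 at 39.0%, Plin4 at 46.2%, G0s2 at 53.5% and Cidec at 87.8%. For G0s2 the spread was present within each genotype, at 41.9% in NIKhKO and 40.7% in NIKflox livers.

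Among the coat genes, Plin2 (ENSMUSG00000028494, chr4:86648386-86670060, minus strand, GRCm38) encodes the perilipin that coats hepatocyte droplets in most settings and is degraded when not bound to lipid. Plin2 had 92.5, 91.8, 61.5, 55.5 and 78.9 FPKM in NIKhKO livers 1 to 5, against 74.5, 86.9, 60.2, 110.8 and 70.8 FPKM in NIKflox livers 1 to 5. The groups overlapped almost fully, and the single highest liver was NIKflox 4. The means were 76.0 ± 17.01 FPKM in NIKhKO and 80.6 ± 19.4 FPKM in NIKflox (SD, n = 5 each). The log2 fold change was -0.023 (95% interval -0.40 to 0.35; edgeR quasi-likelihood adjusted p = 0.981). It turned positive, to 0.19, without NIKflox 2 and 4, the libraries with heart muscle transcripts.

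Plin5 (ENSMUSG00000011305, chr17:56111601-56117596, minus strand) encodes the perilipin of oxidative tissues, which binds ABHD5 and ATGL and tethers droplets to mitochondria. Plin5 had 18.0, 15.8, 11.1, 13.9 and 11.1 FPKM in NIKhKO livers, against 21.7, 16.0, 17.8, 35.6 and 21.9 FPKM in NIKflox livers. NIKhKO was lower on average, but NIKhKO 1 lay above NIKflox 2 and 3, and NIKflox 4 lay far above the rest. NIKflox 4 was also the library with the most heart muscle transcripts (41.6 FPKM summed over 12 markers). Their part in the Plin5 values was not tested. The means were 13.98 ± 2.996 FPKM in NIKhKO and 22.6 ± 7.69 FPKM in NIKflox, a log2 fold change of -0.63 (SE 0.20, 95% interval -1.06 to -0.19). With an unadjusted p of 0.0086 it ranked 342 of 12731 genes by p in edgeR, and its adjusted p was 0.319. The log2 fold change stayed negative when any library was left out, from -0.73 to -0.43, and was smallest in size without NIKflox 4. In the 12 other alternatives, among them leaving out NIKflox 2 and 4 together, it ran from -0.70 to -0.44.

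Plin5 was also set against Plin2 within each library, a ratio free of library scaling. The Plin5/Plin2 ratio was 0.195, 0.172, 0.181, 0.249 and 0.141 in NIKhKO livers, against 0.291, 0.184, 0.296, 0.321 and 0.310 in NIKflox livers. Every NIKhKO ratio lay below 4 of the 5 NIKflox ratios, and NIKflox 2 lay among the NIKhKO values. The mean log2 ratio was -2.44 ± 0.30 in NIKhKO and -1.86 ± 0.33 in NIKflox, a difference of -0.58 (exact two-sided permutation test, p = 0.0238, Benjamini-Hochberg adjusted over 4 ratios p = 0.0952). It missed the threshold with all 10 libraries and when any of 9 libraries was left out (exact permutation, adjusted p from 0.0952 to 0.222). Without NIKflox 2, the library that stood apart in this ratio, it was -0.72 (exact permutation, adjusted p = 0.0317). Leaving out the only NIKflox library among the NIKhKO values separates the groups fully. The permutation p is then near the lowest that the group sizes allow and says little about the size of the difference.

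**Figure D2:**
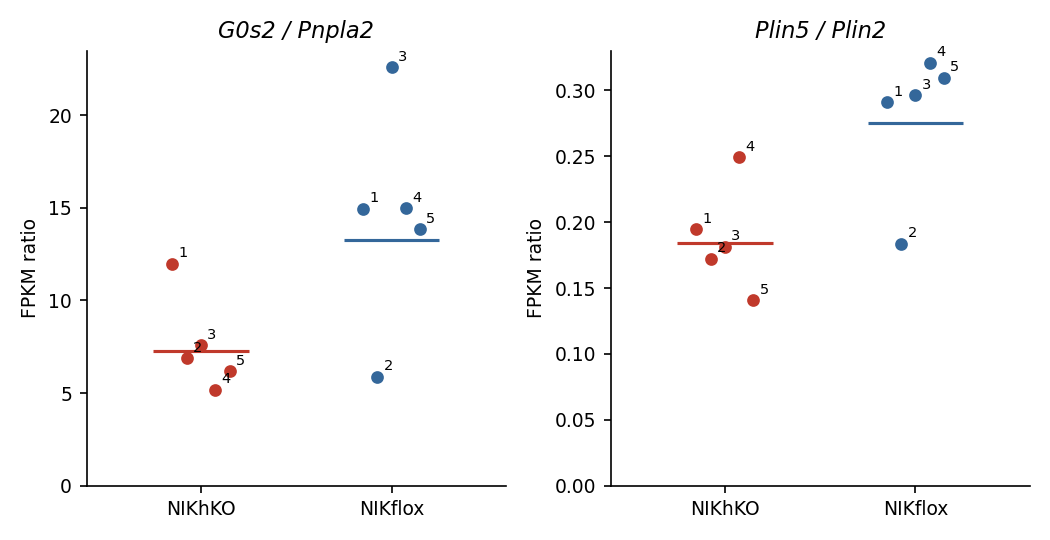
FPKM ratios within each library of G0s2 to Pnpla2 (left) and Plin5 to Plin2 (right), NIKhKO left of NIKflox. Numbers give the replicate and bars the geometric mean of the ratios (the mean taken on the log2 scale), and both axes start at 0. NIKflox 2, at 5.89 and 0.184, lies among the NIKhKO livers in both panels.

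Plin4 (ENSMUSG00000002831, chr17:56100591-56109803), a perilipin best known from adipocytes and muscle, was low. Plin4 had 1.09, 1.05, 0.413, 0.515 and 1.73 FPKM in NIKhKO livers, against 0.701, 1.54, 1.44, 1.92 and 1.97 FPKM in NIKflox livers. NIKhKO 3 and 4 were the lowest of all, and NIKhKO 1, 2 and 5 lay among the NIKflox values. The log2 fold change was -0.59, with a wide 95% interval of -1.41 to 0.23 (edgeR adjusted p = 0.667). With 1 library left out it ran from -0.93 without NIKhKO 5 (edgeR unadjusted p = 0.0206, adjusted p = 0.575) to -0.41 without NIKhKO 3 (edgeR adjusted p = 0.788). Plin3 (ENSMUSG00000024197, chr17:56277476-56292873), which moves from cytosol to nascent droplets, averaged 8.85 ± 1.62 FPKM in NIKhKO and 9.38 ± 1.82 FPKM in NIKflox livers, with a log2 fold change of -0.019 (95% interval -0.32 to 0.28).

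In the summed FPKM of the 4 perilipins Plin2 took 75.9 ± 3.16% in NIKhKO and 70.6 ± 4.26% in NIKflox livers (SD, n = 5 each), and Plin5 took 14.2 ± 2.37% in NIKhKO and 19.6 ± 3.11% in NIKflox. The Plin5 share was 11.1 to 17.6% in NIKhKO, against 14.3% in NIKflox 2 and 19.8 to 22.2% in the other NIKflox livers. Plin4 and Plin5 lie 1797 bases apart on the same strand of chromosome 17, with Plin3 a further 159879 bases away. Lrg1, which encodes a secreted leucine-rich glycoprotein, lies 2081 bases beyond Plin5. It had 105 to 144 FPKM in NIKhKO and 154 to 212 FPKM in NIKflox livers, without overlap, and a log2 fold change of -0.44 (SE 0.13, edgeR adjusted p = 0.297).

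The CIDE genes were dominated by Cideb (ENSMUSG00000022219, chr14:55754050-55758458, minus strand), the liver member of the family, which also takes part in the lipidation of very low density lipoprotein. Cideb had 144 to 164 FPKM in NIKhKO and 140 to 162 FPKM in NIKflox livers and made up 99.5 ± 0.196% of the summed CIDE FPKM in NIKhKO and 99.1 ± 0.833% in NIKflox. It was the 1 droplet gene with a positive log2 fold change, 0.11 (95% interval -0.07 to 0.30; edgeR adjusted p = 0.723). Of its 1488 exon bases, 1136 (76.3%) are shared with Nop9 on the opposite strand, whose level was 7.63 ± 1.14 FPKM in NIKhKO and 7.93 ± 1.41 FPKM in NIKflox. The strand of counting is not stated, so reads of the pair cannot be told apart.

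Cidec (ENSMUSG00000030278, chr6:113424634-113435760, minus strand), whose product makes the large droplets of fat cells and is induced in fatty liver, was low in these livers. Cidec had 0.780, 0.972, 0.513, 0.535 and 1.15 FPKM in NIKhKO livers, against 0.677, 3.21, 0.465, 0.581 and 0.544 FPKM in NIKflox livers. NIKflox 2 alone reached more than 2 FPKM, and the other 4 NIKflox livers lay within or below the NIKhKO range. The log2 fold change was -0.43 (95% interval -1.64 to 0.78; edgeR adjusted p = 0.856) with all libraries and 0.54 without NIKflox 2. The Cidec/Plin2 ratio behaved likewise, at 0.0370 in NIKflox 2, 0.00524 to 0.00909 in the other NIKflox livers and 0.00835 to 0.0145 in NIKhKO livers. Its mean log2 difference was below 0.01 in size with all libraries (exact permutation p = 1.0) and 0.47 without NIKflox 2 (exact permutation, adjusted p = 0.0635).

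Cidea (ENSMUSG00000024526), a CIDE gene of brown fat that appears in livers with heavy fat loading, did not reach the mean of 0.5 FPKM and was not tested. It had counts in 1 NIKhKO liver, replicate 5 (0.173 FPKM, 14 counts), and in NIKflox replicates 2 (0.600 FPKM, 45 counts) and 4 (0.760 FPKM, 62 counts). In the other 7 livers its count was 0, which allows up to 3 counts.

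Some adipocyte markers were present in the same libraries, and others on the list were not confined to them. Plin1, the adipocyte perilipin and not one of the 10 genes, had counts in NIKhKO 5 (0.0705 FPKM), NIKflox 2 (0.664 FPKM) and NIKflox 4 (0.113 FPKM) and was at 0 in the other 7, which are the 7 without Cidea. Adipoq, the adipocyte hormone adiponectin, was 0.142 FPKM in NIKhKO 2, 0.238 FPKM in NIKhKO 5, 2.88 FPKM in NIKflox 2, 0.255 FPKM in NIKflox 4 and at 0 elsewhere, and Lep and Retn were at 0 in all but NIKflox 2. Fabp4 and Adrb3 had counts in every library. Fabp4 was highest in NIKflox 2 (6.96 FPKM) but lowest in NIKhKO 5 (2.34 FPKM), and Adrb3 was lowest in NIKflox 4 (0.0975 FPKM). Acvr1c had counts in NIKhKO 2, NIKflox 2 and NIKflox 4 and not in NIKhKO 5. The 10 adipocyte markers summed to 562 to 651 FPKM in NIKhKO and 401 to 654 FPKM in NIKflox livers, nearly all of it from Cdo1, which hepatocytes express. The 6 of them at 0 in at least 1 library summed to 0 to 1.03 FPKM in NIKhKO libraries and, in NIKflox, to 19.3 FPKM in replicate 2, 1.34 FPKM in replicate 4 and 0 in the other 3. In NIKflox 2, Cfd alone gave 14.4 FPKM of that sum. The part of adipocyte transcripts in the Cidea and Cidec values was not tested. Without the 3 libraries with Plin1 counts, a choice made after seeing the data, log2 fold changes were 0.35 for Cidec, 0.17 for Plin2 and 0.0266 for Pnpla2, with 0 of 9 genes called by edgeR.

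**Figure D3:**
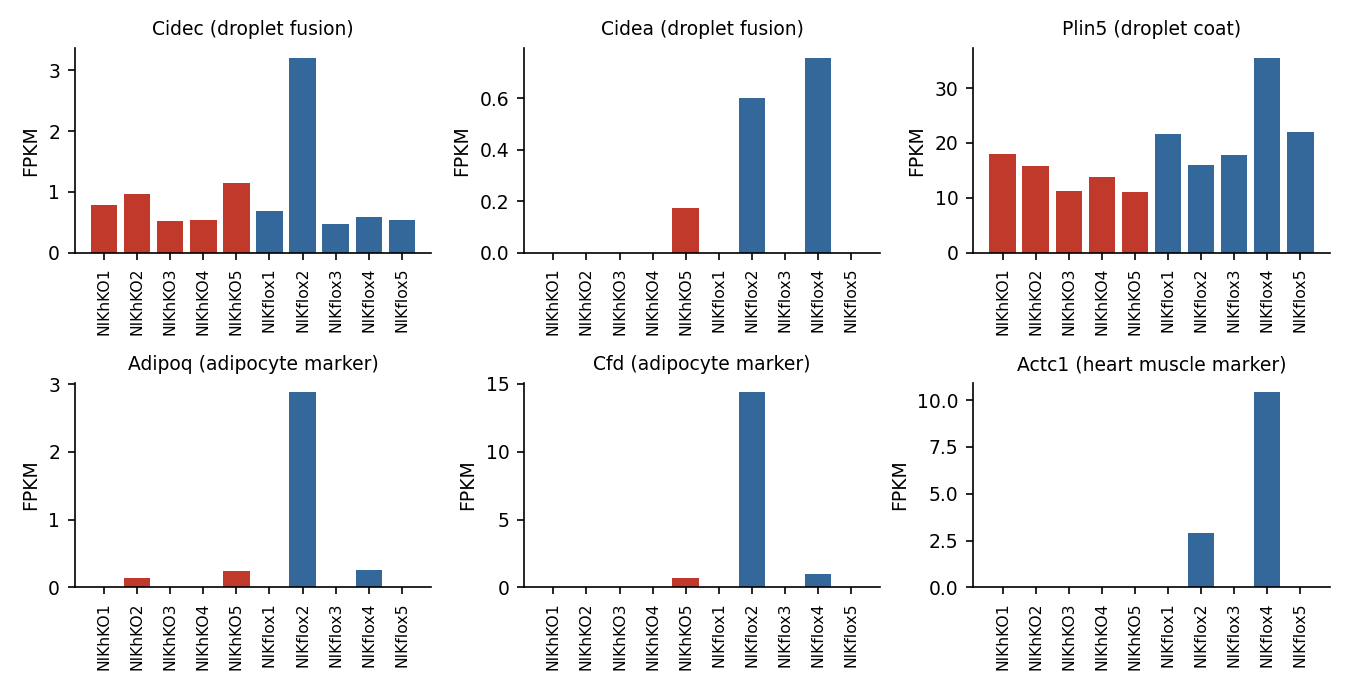
FPKM by library of Cidec, Cidea and Plin5 (top) and of the adipocyte markers Adipoq and Cfd and the heart muscle marker Actc1 (bottom), NIKhKO in red left of NIKflox in blue, each axis from 0. Cidec, Adipoq and Cfd are highest in NIKflox 2, and Plin5, Cidea and Actc1 in NIKflox 4.

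G0s2 (ENSMUSG00000009633, chr1:193272161-193273217, minus strand), the inhibitor of ATGL, was at the highest mean level and had the largest fitted difference of the 9 tested genes. G0s2 had 233, 124, 122, 88.0 and 109 FPKM in NIKhKO livers, against 231, 102, 386, 332 and 289 FPKM in NIKflox livers. NIKhKO 1 reached the level of NIKflox 1, and NIKflox 2 lay within the range of the other NIKhKO livers. NIKflox 3, 4 and 5 were above every NIKhKO liver. The means were 135 ± 56.6 FPKM in NIKhKO and 268 ± 109 FPKM in NIKflox, a log2 fold change of -0.92 (SE 0.33, 95% interval -1.64 to -0.20). Its unadjusted p was 0.017, rank 583 of 12731, and its adjusted p 0.37. Leaving out 1 library at a time gave -1.20 (without NIKhKO 1) to -0.75 (without NIKflox 3), with edgeR adjusted p from 0.212 to 0.63. In the 12 other alternatives, among them leaving out NIKflox 2 and 4 together, it ran from -1.11 to -0.88.

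Pnpla2 (ENSMUSG00000025509, chr7:141455198-141460743, plus strand), the gene of ATGL itself, had 19.4, 17.9, 16.1, 16.98 and 17.5 FPKM in NIKhKO livers, against 15.5, 17.2, 17.1, 22.2 and 20.9 FPKM in NIKflox livers. The NIKhKO values lay inside the NIKflox range, and the highest were NIKflox 4 and 5. Its log2 fold change was -0.012 (95% interval -0.22 to 0.20; edgeR adjusted p = 0.982). Abhd5 (ENSMUSG00000032540, chr9:122351608-122381524, plus strand), the coactivator, had 3.40, 3.09, 4.00, 3.25 and 3.27 FPKM in NIKhKO livers, against 3.85, 3.66, 3.95, 3.84 and 3.22 FPKM in NIKflox livers. NIKhKO 3 was the highest and NIKhKO 2 the lowest of the 10. The log2 fold change was -0.057 (95% interval -0.29 to 0.18; edgeR adjusted p = 0.914).

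**Figure D4:**
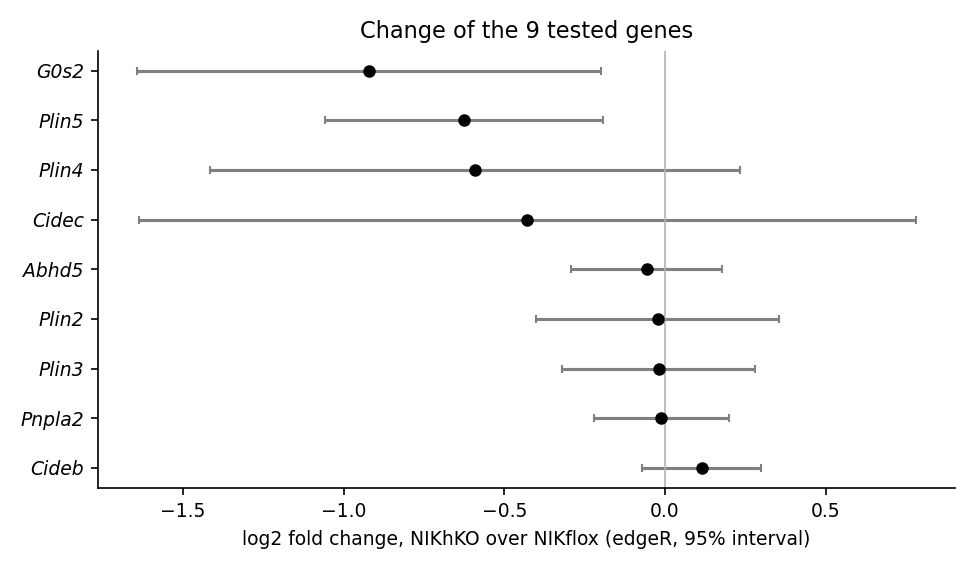
Log2 fold change of NIKhKO over NIKflox from edgeR for the 9 tested droplet genes, with 95% intervals for single genes, not adjusted for the number of genes. The intervals of G0s2 (-1.64 to -0.20) and Plin5 (-1.06 to -0.19) lie below 0 and the other 7 include it; none passed the adjusted test.

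The ratio of inhibitor to enzyme transcripts followed G0s2, and neither protein nor lipase activity was measured. The G0s2/Pnpla2 ratio was 12.0, 6.90, 7.60, 5.18 and 6.20 in NIKhKO livers, against 14.96, 5.89, 22.6, 14.98 and 13.9 in NIKflox livers. All NIKhKO ratios were below 4 of the 5 NIKflox ratios, and NIKflox 2 was lower than 4 of the 5 NIKhKO ratios. The mean log2 ratio was 2.86 ± 0.45 in NIKhKO and 3.73 ± 0.71 in NIKflox, a difference of -0.87 (exact permutation p = 0.0714, adjusted p = 0.143). Without NIKflox 2 the difference was -1.16 (exact permutation, adjusted p = 0.0317). As for Plin5/Plin2, leaving out this library separates the groups fully, so the permutation p is near the lowest that the group sizes allow. With any of the other 9 libraries left out the difference was -1.05 to -0.68 and did not pass (exact permutation, adjusted p from 0.0952 to 0.222). The Abhd5/Pnpla2 ratio, coactivator to enzyme, was 0.172 to 0.248 in NIKhKO and 0.154 to 0.249 in NIKflox livers, a mean log2 difference of -0.058 (exact permutation p = 0.698, adjusted p = 0.931).

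**Figure D5:**
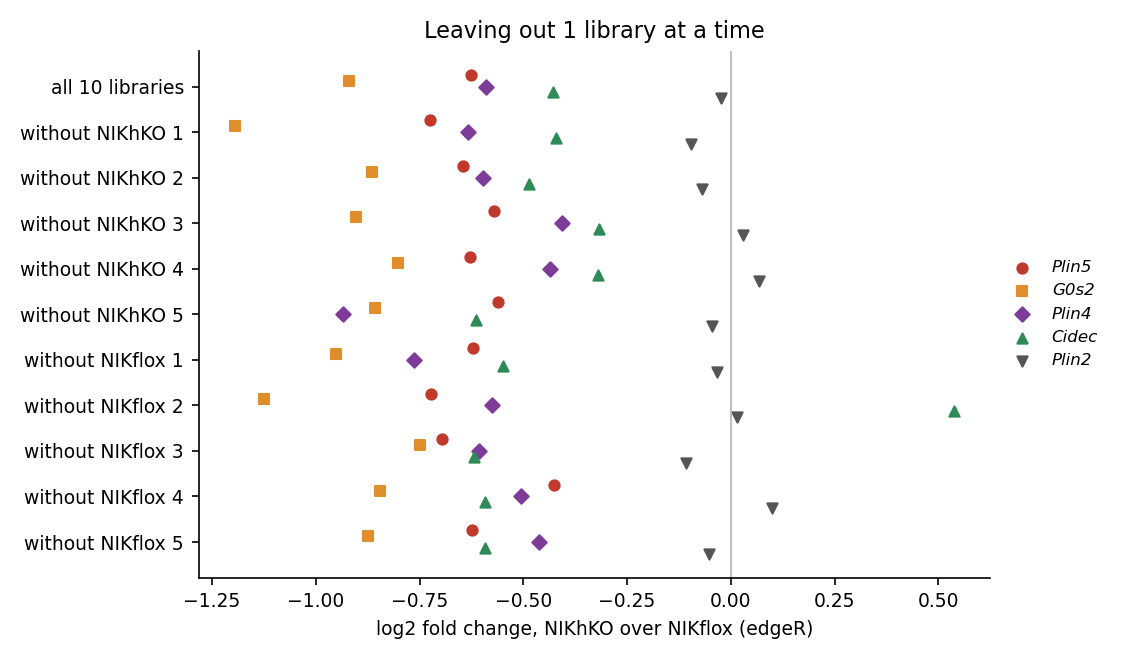
Log2 fold change of NIKhKO over NIKflox (edgeR) for 5 droplet genes with all 10 libraries (top row) and with each library left out. G0s2, Plin5 and Plin4 stay below 0 in every row, Cidec moves to 0.54 without NIKflox 2, and Plin2 lies on both sides of 0.

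The share of counts from mitochondrial transcripts moved with several of these genes. It was 8.64 to 12.7% in NIKhKO and 7.15 to 11.1% in NIKflox libraries (means 10.8 ± 1.96% and 9.38 ± 1.53%, SD, n = 5 each; exact permutation p = 0.246). NIKflox 4, with the highest Plin5, Plin2 and Pnpla2, had the lowest share. Over the 10 libraries Pearson's r with that share was -0.80 for Plin5 (permutation p = 0.00446, adjusted over 9 genes 0.0342; Spearman's rho -0.71, permutation p = 0.0279, adjusted 0.0502). For G0s2 it was -0.75 (permutation p = 0.0152, adjusted 0.0342; rho -0.73, permutation p = 0.0207, adjusted 0.0502). It was -0.77 for Plin3 (permutation p = 0.0107, rho -0.76) and -0.75 for Pnpla2 (permutation p = 0.0124, rho -0.75), both with an adjusted p of 0.0342. It was -0.68 for Plin2 (permutation p = 0.0329, adjusted 0.0592) and -0.61 for Plin4 (permutation p = 0.0671), and for Cideb, Cidec and Abhd5 it was 0.0063 to 0.17. Without NIKhKO 4 and NIKflox 4, the libraries farthest from the median share, r was -0.79 for Plin3 (permutation p = 0.0236), -0.69 for Plin5 (permutation p = 0.0655), -0.64 for Pnpla2 (permutation p = 0.0923), -0.61 for G0s2 (permutation p = 0.109) and -0.32 for Plin2 (permutation p = 0.431). For all of these but Plin3 the relation rests in part on those 2 libraries. With the genotype means taken out, r was -0.78 for Plin5 and -0.70 for G0s2. The relation was looked for after seeing the data, 65.2% of all tested genes had a negative r, and 6.42% had one at or below that of Plin5 and 9.38% at or below that of G0s2. The part of this share in the G0s2 and Plin5 differences was not tested.

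Across the 10 livers, 21 of the 36 pairs of tested droplet genes had a positive Pearson r of log2(FPKM + 1), with a median of 0.32. The highest were Plin5 with G0s2 (0.75), Plin4 with Pnpla2 (0.70), Plin3 with G0s2 (0.68) and Plin5 with Pnpla2 (0.65). These were picked out after their values were seen and only describe the 10 libraries. A test was run on 8 other pairs, chosen by role, and none of these 8 passed it. Plin2 and Plin5 had a Pearson r of 0.54 (permutation p = 0.107, adjusted over 8 pairs 0.277; Spearman's rho 0.37, permutation p = 0.296), and 0.092 without NIKhKO 4 and NIKflox 4. Plin2 and Cidec had an r of 0.37 (permutation p = 0.317) and a rho of 0.67 (permutation p = 0.0392, adjusted 0.314). Pnpla2 and G0s2, enzyme and inhibitor, had an r of 0.48 (permutation p = 0.169, adjusted 0.277; rho 0.43, permutation p = 0.219), which was 0.029 without NIKflox 4 and 5. Pnpla2 and Abhd5 had an r of -0.26 (permutation p = 0.46; rho -0.49, permutation p = 0.154). The r of Plin4 with its neighbour Plin5 was 0.47 (permutation p = 0.173; rho 0.48, permutation p = 0.167) and 0.19 with genotype means taken out. Cidec and Cidea had an r of 0.53 (permutation p = 0.139; rho 0.50, permutation p = 0.155), which rests on the 3 libraries with Cidea counts. Plin2 had an r of 0.53 with Plin4 (permutation p = 0.119; rho 0.41, permutation p = 0.248) and 0.19 with G0s2 (permutation p = 0.595; rho 0.21, permutation p = 0.565).

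The genes whose levels were most like a droplet gene's were sought among 10565 other genes with a mean of at least 1 FPKM. They are given by Pearson r over the same 10 libraries. Any difference in depth or preparation between libraries is common to all genes of a library, and its part in r was not tested. G0s2 was most like Cbx8 (0.98), a Polycomb chromobox gene, Mdh1 (0.94), the cytosolic malate dehydrogenase, and Mrpl4 (0.92), a mitochondrial ribosomal protein. Plin5 was most like Mettl23 (0.97), Emc7 (0.97) and Nudc (0.96). Plin2 was most like Wsb2, Slc25a20, the carnitine-acylcarnitine carrier of mitochondria, and 9430015G10Rik, each at 0.94. For Plin3 these were Spryd4, Armc5 and Tmprss6 (0.94 to 0.96), for Pnpla2 Ap3s2, Rxrb and AU040320 (0.93 to 0.95), and for Plin4 Gm10284, Trim28 and Srsf9 (0.89 to 0.93). Cidec was most like Angptl2, Oasl2 and Col3a1 (0.93 to 0.94), with rank correlations of 0.65 to 0.79. Abhd5 was most like the alpha-globin genes Hba-a1 (0.96) and Hba-a2 (0.92) and Gm12319 (0.94), and Cideb most like Eif2ak2, Fam98b and Depp1 (0.86 to 0.90).

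The other genes of droplet turnover gave no call in edgeR either. Of 14 further lipases and lipase regulators 13 were tested, 4 with a positive and 9 with a negative log2 fold change and a median of -0.060. In edgeR an unadjusted p below 0.05 was found for 1273 of all 12731 genes and for 4 of these 13. The 2 with the smallest p were Lpl, lipoprotein lipase, at 3.55 ± 0.671 FPKM in NIKhKO and 2.62 ± 0.520 FPKM in NIKflox (log2 fold change 0.51, edgeR adjusted p = 0.344), and Pnpla7, a lysophospholipase, at 7.86 ± 0.911 FPKM in NIKhKO and 11.4 ± 2.55 FPKM in NIKflox (-0.48, edgeR adjusted p = 0.347). Of 22 tested genes of droplet assembly and growth, 15 were positive and 7 negative, with a median of 0.058 and 1 with an unadjusted p below 0.05. That was Fitm1, a fat storage-inducing membrane protein, at 14.7 ± 7.36 FPKM in NIKhKO and 7.34 ± 4.97 FPKM in NIKflox (1.08, edgeR adjusted p = 0.472), and Tmem38b came next (0.17, edgeR adjusted p = 0.537). DESeq2, which called 207 of 12731 genes, called 0 of both lists, and limma called 0 genes of the whole table.

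Among 15 regulators of droplet genes, 9 were positive and 6 negative with a median of 0.078. In edgeR an unadjusted p below 0.05 was found for 1273 of all 12731 genes and for 2 of these 15. The 2 regulators were Pparg, the adipogenic nuclear receptor, at 5.33 ± 1.42 FPKM in NIKhKO and 3.83 ± 0.880 FPKM in NIKflox (0.55, edgeR adjusted p = 0.383), and Ppargc1b, a coactivator gene, at 0.661 ± 0.212 FPKM in NIKhKO and 0.437 ± 0.120 FPKM in NIKflox (0.67, edgeR adjusted p = 0.441). The 20 PPAR target genes outside the droplet set had 8 positive and 12 negative values, a median of -0.083 and 3 with an unadjusted p below 0.05. Acot1, an acyl-CoA thioesterase, was 5.00 ± 1.56 FPKM in NIKhKO and 10.6 ± 3.02 FPKM in NIKflox (-1.01), with an adjusted p of 0.227 in edgeR and 0.00501 in DESeq2. Fgf21, a fasting hormone gene, was 2.81 ± 0.355 FPKM in NIKhKO and 9.23 ± 7.39 FPKM in NIKflox (-1.63), with an adjusted p of 0.293 in edgeR and 0.0246 in DESeq2. Its levels were 2.47 to 3.40 FPKM in NIKhKO livers, against 16.4 and 18.1 FPKM in NIKflox 2 and 4, the libraries with heart muscle transcripts, and 2.98 to 4.42 FPKM in the other NIKflox livers. Acot1 and Fgf21 were the only genes of these lists among the 207 of 12731 that DESeq2 called, and limma called 0 of all 12731.

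The table annotates 90 genes to the GO term lipid droplet, 8 of the 10 genes among them. Of the other 82, 64 were tested, 31 positive and 33 negative, with a median of -0.020 and 0 called by edgeR, DESeq2 or limma. Over all 12731 genes edgeR called 3, DESeq2 207 and limma 0. In edgeR an unadjusted p below 0.05 was found for 1273 of all 12731 genes and for 5 of these 64. Smallest in p were Rab5c, an early endosome GTPase, at 48.4 ± 5.11 FPKM in NIKhKO and 37.0 ± 7.91 FPKM in NIKflox (log2 fold change 0.46, edgeR adjusted p = 0.3), and Rsad2, the antiviral protein viperin, at 1.75 ± 0.495 FPKM in NIKhKO and 1.20 ± 0.0819 FPKM in NIKflox (0.60, edgeR adjusted p = 0.32).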

How the data were processed

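RNA-seq of 10 livers was deposited as 1 table with an FPKM value and an estimated count per gene and library. The authors made the FPKM values, as the headers of the table name them, and the deposited estimated counts are whole numbers and not normalized. A count of 0 is listed at an FPKM of 1e-04. Low counts pile up at multiples of 4 (on average 907 genes at a count of 4, 330.5 at 3 and 175.8 at 5), so a count may not stand for 1 fragment, and the depth in fragments is not known. Tools listed in the submitters' processing notes were edgeR, StringTie 1.3.4d, HISAT2 2.0.4 and cutadapt 1.9, with the human build hg38. The gene identifiers are from mouse, and start and end were the same as in GENCODE M21 (GRCm38) for 51957 of 55401 genes (93.8%) and for all 10 droplet genes, so coordinates are read as GRCm38. Promoters come from RefSeq, GRCm38.p6.

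The 12731 genes with a mean of at least 0.5 FPKM, Map3k14 (kept whatever its level) included, were tested with edgeR 4.0.16 in R 4.3.3 (quasi-likelihood, TMM, two-sided, Benjamini-Hochberg over all, called below 0.05). Standard errors are the log2 fold change over the square root of F. Ratios within a library were compared by exact permutation (smallest possible p 0.0079) and correlations with 100000 permutations, in Python 3.11.15 with scipy 1.17.1. Alternatives were other scalings and filters, robust shrinkage, DESeq2 1.42.0, limma 3.58.1, counts divided by 4, the replicate number as a block and libraries left out. The gene test was tested on simulated data with 50 changed genes of each size. It recovered 10% of 1.5-fold, 52% of 2-fold, 98% of 4-fold and 94% of 8-fold changes. Changes of 2-fold or less can therefore be missed. The droplet genes and all lists were chosen with earlier results of these data known. Named by rule were the 10 genes, Map3k14, called genes of a list or else the 2 with the smallest p, the 3 genes most like each tested droplet gene, and overlapping or neighbouring genes. Genes outside this rule, such as Plin1 and the marker genes shown, were chosen after their values were seen.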

Additional observations from a re-analysis of the deposited data

Results flagged for a closer look

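Within a genotype, 6 of 28 groups of 5 values held 1 library whose gap to its nearest neighbour was over 0.71 of the group's whole range, which chance gives in about 1 group in 20 of independent measured values. The ratio groups reuse the same genes and are not independent of them. For Cidea it was NIKhKO 5, at 0.173 FPKM with the other 4 NIKhKO livers at a count of 0, where the gap equals the whole range by construction. For G0s2 it was NIKhKO 1, at 233 FPKM with the other NIKhKO livers at 88.0 to 124 FPKM. For the Abhd5/Pnpla2 ratio it was NIKhKO 3, at 0.248 with the others at 0.172 to 0.191.

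NIKflox 2 accounts for the other 3. Its Cidec level was 3.21 FPKM, with the other NIKflox livers at 0.465 to 0.677 FPKM. Its Cidec/Plin2 ratio was 0.0370, with the others at 0.00524 to 0.00909. Its Plin5/Plin2 ratio was 0.184, with the others at 0.291 to 0.321. NIKflox 2 also held the most Adipoq (2.88 FPKM) and Cfd (14.4 FPKM) of the 10 libraries, and the part of such transcripts in the 3 values was not tested.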

How the results depend on the processing

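In all 22 alternatives 0 droplet genes were called, and of 198 log2 fold changes 19 changed sign, none of them past the threshold. G0s2, Plin5, Plin4 and Cideb kept their direction in all 22. The 3 genes called over the whole table became 9 with total counts only, 207 with DESeq2, 6 with robust shrinkage, 0 with limma at either pseudocount (1 or 0.1), 1 without NIKflox 2 and 4, and 0 to 24 with 1 library left out (24 without NIKhKO 4). The cause was not tested. Without NIKflox 2 and 4 the log2 fold change was 0.0317 for Pnpla2, 0.19 for Plin2 and 0.53 for Cidec, and without the 3 libraries with Plin1 counts, an alternative added after seeing the data, 0.0266 for Pnpla2, 0.17 for Plin2 and 0.35 for Cidec. With 1 library left out the log2 fold change ran from -0.0556 to 0.0472 for Pnpla2, -0.14 to 0.0013 for Abhd5, -0.11 to 0.0588 for Plin3, -0.11 to 0.10 for Plin2 and -0.62 to 0.54 for Cidec. The log2 ratio differences then ran from -0.24 to 0.47 for Cidec/Plin2, -0.15 to 0.0193 for Abhd5/Pnpla2, -1.16 to -0.68 for G0s2/Pnpla2 and -0.72 to -0.48 for Plin5/Plin2, and the r of Plin2 with G0s2 from -0.0660 to 0.48. The labels do not say whether replicate numbers pair the samples. Deviations of same-numbered livers correlated at -0.32 to 0.0301, and 0 of 10 livers correlated best with their own number. Such correlations cannot exclude a pairing. With the replicate block 2 genes were called, and the log2 fold changes were -0.0093 for Cidec, -0.88 for G0s2 (edgeR adjusted p = 0.574) and -0.60 for Plin5 (edgeR adjusted p = 0.504). Counts near 0 limit Cidea, and the spread between 5 livers limits G0s2, Cidec and Plin4, which had the widest 95% intervals.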
